A study of Mus musculus with 7 samples.

Results

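The 5 genes of the NFAT family (Nfatc1, Nfatc2, Nfatc3, Nfatc4 and Nfat5), 3 calcineurin subunit genes (Ppp3ca, Ppp3cb and Ppp3r1) and the calcineurin inhibitor gene Rcan1 were examined for binding of PU.1 and MITF during mouse osteoclast (OC) differentiation. These 9 genes, of 22367 protein-coding genes in the annotation used (GENCODE vM1, mouse build mm9), were taken by name, and a peak was counted for a gene when its centre lay in the gene or within 50 kb of either end. Chromatin immunoprecipitation sequencing (ChIP-Seq) gave 1 peak list for PU.1 and 1 for MITF at each of 3 stages, and these 6 lists placed 387 PU.1 and 28 MITF peaks in the 9 windows. Overlapping peaks were merged into 174 sites. Myeloid precursors (MP) were bone marrow cells of C57BLACK6 mice, 4 to 6 weeks old, grown for 3 days with CSF1 at 50 ng per ml. The other stages were the same cells kept in CSF1 with RANKL at 100 ng per ml for 36 h (36 h) or 72 h (OC). Chromatin was precipitated with 5 µg of antibody to PU.1 or MITF, and an IgG control was made in MP only. Every condition had 1 library, so no difference between stages has a replicate error, and each p-value below compares 2 libraries, not 2 conditions.

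NFAT proteins are transcription factors, and 4 of the 5 are switched on by calcium. Calcineurin, a phosphatase built of a catalytic A subunit (encoded by Ppp3ca or Ppp3cb in most cells) and a regulatory B subunit (Ppp3r1), removes phosphates from them when calcium and calmodulin bind it, and they then enter the nucleus. Nfat5 is the exception: it answers to osmotic stress and lacks the calcineurin docking region. NFATc1 is the factor best known for driving the osteoclast programme downstream of RANKL, Rcan1 both restrains calcineurin and is a well known NFAT target, PU.1 is an Ets factor that defines the myeloid lineage, and MITF is a basic helix-loop-helix factor that binds E-boxes.

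Sites of Nfatc2, Nfatc3, Nfatc4, Nfat5, Ppp3ca, Ppp3r1 and Rcan1 on which the results turn are shown first, as 151 bases of mm9 around the centre of the PU.1 OC peak, on the plus strand. Capitals mark GAGGAA or AGGAAG, letters of the Ets type that PU.1 binds, and the E-boxes CACGTG or CATGTG, each searched on both strands. GAGGAA and AGGAAG overlap wherever GAGGAAG occurs. Of all 77002 PU.1 OC peaks on the autosomes and sex chromosomes, 76.6% held GAGGAA or AGGAAG in such a window and 13.2% held CACGTG or CATGTG. In the 135 PU.1 OC peaks of the 9 genes the shares were 74.8% (95% Wilson interval 66.9 to 81.4) and 17.8% (12.2 to 25.1). The first set holds the 4 sites in Nfatc2 introns that carried MITF in all 3 lists. The sequence at 62.4 kb held CACATGTG, in which CACATG and CATGTG overlap, and that at 38.2 kb held CACGTG.
Nfatc2 intronic site 62.4 kb from the start (chr2:168364685-168364835): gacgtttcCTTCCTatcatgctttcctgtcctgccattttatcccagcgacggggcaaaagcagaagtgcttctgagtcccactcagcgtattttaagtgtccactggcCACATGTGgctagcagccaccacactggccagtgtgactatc
Nfatc2 intronic site 38.2 kb from the start (chr2:168388844-168388994): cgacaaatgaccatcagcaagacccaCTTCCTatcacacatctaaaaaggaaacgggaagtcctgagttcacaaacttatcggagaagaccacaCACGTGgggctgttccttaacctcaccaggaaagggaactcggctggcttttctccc
Nfatc2 intronic site 22.4 kb from the start (chr2:168404696-168404846): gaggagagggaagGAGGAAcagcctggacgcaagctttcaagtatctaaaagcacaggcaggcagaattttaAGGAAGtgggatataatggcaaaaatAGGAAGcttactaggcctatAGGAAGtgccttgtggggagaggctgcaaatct
Nfatc2 intronic site 18.4 kb from the start (chr2:168408650-168408800): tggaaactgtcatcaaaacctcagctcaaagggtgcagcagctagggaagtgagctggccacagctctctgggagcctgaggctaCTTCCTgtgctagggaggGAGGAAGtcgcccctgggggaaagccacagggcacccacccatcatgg

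The second set holds the 6 sites with a MITF peak at Nfatc3, Nfat5, Ppp3ca and Rcan1. Each of these 6 held GAGGAA or AGGAAG, and none held CACGTG or CATGTG, which says only that these letters were not in these 151 bases. At Nfat5 the MITF MP peak, chr8:109801400-109801550, lay only partly within the printed bases, and its centre lay outside them. The printed letters there describe the PU.1 peak and not the MITF peak.
Nfatc3 intronic site 4.4 kb from the start (chr8:108587087-108587237): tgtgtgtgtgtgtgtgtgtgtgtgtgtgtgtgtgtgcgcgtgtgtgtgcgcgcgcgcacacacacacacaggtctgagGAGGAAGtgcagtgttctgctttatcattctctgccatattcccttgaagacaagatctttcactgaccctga
Nfatc3 window site inside Pla2g15 (chr8:108676887-108677037): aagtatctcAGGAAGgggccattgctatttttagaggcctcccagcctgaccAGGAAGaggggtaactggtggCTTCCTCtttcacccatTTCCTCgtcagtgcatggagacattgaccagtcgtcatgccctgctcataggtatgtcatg
Nfat5 site 15.8 kb upstream of the start (chr8:109801509-109801659): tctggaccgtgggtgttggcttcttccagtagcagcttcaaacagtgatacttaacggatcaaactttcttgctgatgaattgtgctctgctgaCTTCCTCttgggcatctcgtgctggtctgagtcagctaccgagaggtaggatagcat
Ppp3ca intronic site 55.5 kb from the start (chr3:136388539-136388689): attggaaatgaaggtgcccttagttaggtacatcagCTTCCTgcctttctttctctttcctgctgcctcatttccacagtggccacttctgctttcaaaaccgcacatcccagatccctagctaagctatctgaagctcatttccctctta
Ppp3ca intronic site 72.8 kb from the start (chr3:136405799-136405949): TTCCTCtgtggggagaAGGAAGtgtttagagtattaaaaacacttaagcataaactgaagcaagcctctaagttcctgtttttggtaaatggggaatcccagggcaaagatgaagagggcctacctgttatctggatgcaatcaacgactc
Rcan1 intronic site 50.3 kb from the start (chr16:92416002-92416152): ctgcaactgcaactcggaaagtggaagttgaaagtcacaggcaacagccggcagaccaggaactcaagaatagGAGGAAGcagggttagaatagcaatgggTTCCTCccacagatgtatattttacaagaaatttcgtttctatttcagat

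The third set holds the sites with the highest mean PU.1 score of Nfatc4, Ppp3r1 and Rcan1, none of which had a MITF peak. The Rcan1 promoter site held CACGTG and neither GAGGAA nor AGGAAG.
Nfatc4 window site 28.9 kb upstream of the start (chr14:56414657-56414807): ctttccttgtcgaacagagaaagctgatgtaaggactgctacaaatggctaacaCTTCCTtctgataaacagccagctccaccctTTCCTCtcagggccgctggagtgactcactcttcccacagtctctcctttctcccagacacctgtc
Ppp3r1 window site 53 kb from the start (chr11:17112190-17112340): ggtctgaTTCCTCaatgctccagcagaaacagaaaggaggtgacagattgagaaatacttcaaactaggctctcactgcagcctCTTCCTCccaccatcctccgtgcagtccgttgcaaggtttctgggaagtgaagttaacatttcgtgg
Rcan1 promoter site 290 bp upstream of the start (chr16:92466586-92466736): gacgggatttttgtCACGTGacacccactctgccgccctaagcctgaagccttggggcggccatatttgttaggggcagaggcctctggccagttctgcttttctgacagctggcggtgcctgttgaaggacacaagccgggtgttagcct

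The lists held 71941 to 77072 PU.1 peaks and 3540 to 5413 MITF peaks, and the IgG list held 349. A peak's score was a tag count scaled to the size of its library. The tag counts were recovered from the scores, and the lowest peak of a list had 6 or 7 tags for PU.1 and 8 to 10 for MITF. The values are therefore small whole numbers, and the intervals given below cover counting error only. The usual peak was 150 bp wide in the PU.1 and MITF lists of MP and OC but 190 bp in the PU.1 36 h list, and MITF 36 h peaks were up to 1387 bp wide, so tags at 36 h were counted over another width for PU.1 and, at some peaks, for MITF. None of the 9 windows held an IgG peak. The windows of the myeloid genes Csf1r, Itgam and Spi1 held 14 to 22 PU.1 peaks in every list. Those of the osteoclast genes Ctsk and Acp5 held 12 to 13 and 6 to 10, in MP as in OC. These windows differ in length. Per 100 kb of window, the summed PU.1 OC score was 955.1 at Ctsk, 756.5 at Csf1r, 725.6 at Spi1, 594.3 at Itgam and 339.3 at Acp5.

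Each of the 9 genes had PU.1 peaks in all 3 lists, as had 81.2% of all protein-coding genes. Ppp3ca, which encodes a catalytic subunit and is the longest of the genes at 267.6 kb, had 26 peaks in MP, 24 at 36 h and 30 in OC. Nfatc2 had 19, 18 and 20 and Nfatc1 had 18, 20 and 19. Nfat5 had 13, 11 and 11, Nfatc3 had 11, 14 and 14, Rcan1 had 11, 12 and 10, Ppp3r1 had 11, 11 and 9, and Ppp3cb had 10, 9 and 11. Nfatc4 had the fewest in MP and at 36 h, with 7 peaks at each, and had 11 in OC. Of the 174 sites, 98 lay in introns of the member gene, 3 in its exons, 33 upstream and 40 downstream, and 12 lay within 1 kb of an annotated start of a coding transcript. For 118 sites the nearest start of any protein-coding gene was that of the member gene. The share was 24 of 27 at Nfatc1 and 24 of 25 at Nfatc2, whose windows hold 1 other protein-coding gene each. It was 6 of 18 at Nfatc3, 4 of 12 at Nfatc4, 5 of 13 at Ppp3cb and 5 of 12 at Ppp3r1. The windows of these 4 genes hold 5, 4, 4 and 2 other protein-coding genes.

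Nfatc1 (ENSMUSG00000033016.9, chr18:80802944-80909810, minus strand) had 27 sites, of which 16 were intronic, 6 upstream and 5 downstream, and none lay within 1 kb of either annotated start. The highest site, at chr18:80888613-80888852 in intron 2 of the longest coding transcript, was 21.1 kb from the first start and 16.2 kb from the second. It had 171 PU.1 tags in MP, 177 at 36 h and 168 in OC, against a highest value in the whole list of 243, 252 and 243. Its PU.1 score was higher than the highest score in the windows of 98.7%, 98.8% and 98.3% of protein-coding genes in the 3 lists. The same site had 46 MITF tags in MP, 87 at 36 h and 38 in OC. The second site, at chr18:80899291-80899489 in intron 1, 10.4 kb from the first start, had 64, 63 and 68 PU.1 tags, with 11 MITF tags in MP and 9 in OC and no MITF peak at 36 h. The site nearest the first start lay 2.2 kb upstream of it and had 16, 18 and 16 PU.1 tags, so the site in intron 2 was far above it at every stage.

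1 Nfatc1 site stood apart, and it was picked out after its values were seen. At chr18:80886626-80886776, in intron 2 and 23.1 kb from the start, the OC list held a peak of 53 PU.1 tags, while neither the MP list nor the 36 h list had a peak there. The nearest peaks of those lists were centred 2006 and 2007 bp away, at the highest site. Across the genome 10570 OC peaks, 13.7% of the list, overlapped no MP and no 36 h peak, with a median of 8 tags, and 23 of them (0.218%) had 53 or more. The lists hold called peaks only, so the tags present at this position in MP and at 36 h are not known here. No MITF peak was called at it in any list. Among the 48 sites of the 9 genes that were called in 1 PU.1 list only, 45 had under 15 tags, the median was 8 and the next highest value after 53 was 20, at an Nfatc2 site called in MP.

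**Figure D1:**
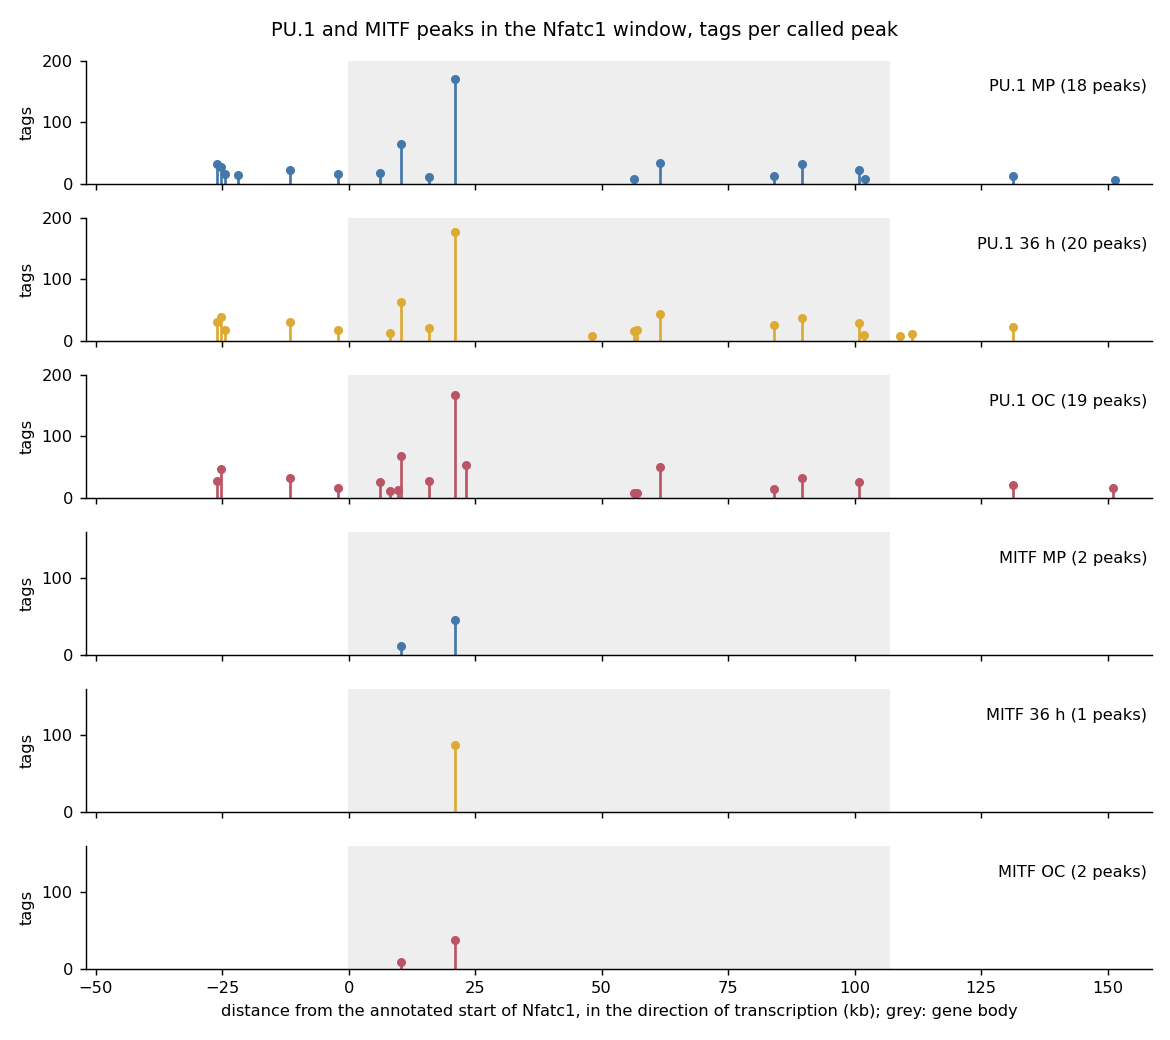
PU.1 and MITF tags (y axis, tags per called peak) against distance from the first annotated start of Nfatc1 in kb (x axis) in the 6 lists, with the gene body in grey. The tallest PU.1 peak, 168 to 177 tags, sits at 21.1 kb in every list and carries the tallest MITF peak, and the 53-tag peak beside it is in the OC list alone.

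Nfatc2 (ENSMUSG00000027544.9, chr2:168301910-168427157, minus strand), which encodes another calcium-dependent NFAT factor, had 4 sites with 88 or more PU.1 tags in every list, where Nfatc1 had 1. The site 22.4 kb from the start, in intron 1, had 161 PU.1 tags in MP, 168 at 36 h and 177 in OC, and 26, 139 and 29 MITF tags. The site at 62.4 kb, in intron 3, had 161, 142 and 166 PU.1 tags with 18, 12 and 8 MITF tags. Values were 88, 131 and 128 for PU.1 and 18, 21 and 16 for MITF at 18.4 kb, and 99, 101 and 123 for PU.1 and 12, 13 and 8 for MITF at 38.2 kb. All 4 lay in introns, and each was a PU.1 site and a MITF site in every list. By contrast the first start of Nfatc2 had a single PU.1 peak, 126 bp upstream, with 9 tags and in the OC list only, and the higher of the sites beside its second start, 10.8 kb downstream of the first, had 19, 23 and 18 tags. Nfatc1 had 1 site with MITF in all 3 lists and Nfatc2 had 4. These counts depend on the lowest MITF peak of each list, 9 tags in MP, 10 at 36 h and 8 in OC. The Nfatc2 sites at 62.4 and 38.2 kb were at that limit in OC, and the second Nfatc1 site lacked a MITF peak at 36 h only.

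**Figure D2:**
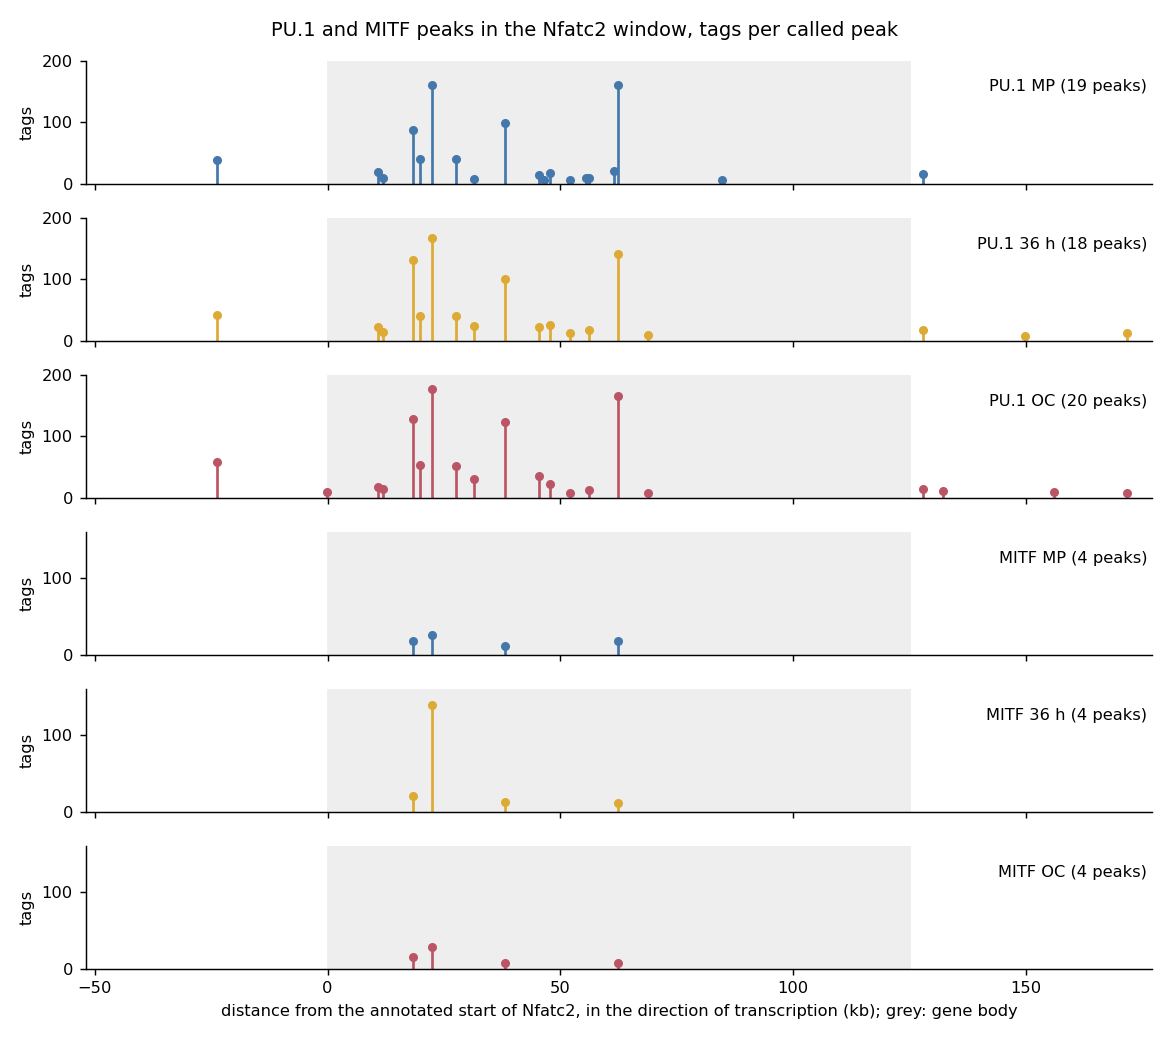
PU.1 and MITF tags (y axis, tags per called peak) against distance from the first annotated start of Nfatc2 in kb (x axis) in the 6 lists, with the gene body in grey. The 4 tallest PU.1 sites, at 18.4, 22.4, 38.2 and 62.4 kb, all carry MITF peaks in the 3 MITF lists.

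Nfatc3 (ENSMUSG00000031902.8, chr8:108582740-108654437, plus strand) had 2 intronic sites only. That at 4.4 kb, in intron 1, had 59 PU.1 tags in MP, 82 at 36 h and 73 in OC and a MITF peak of 10 tags in MP alone. The highest site of its window in MP and OC, with 92, 66 and 94 PU.1 tags and 12 MITF tags in MP and 8 in OC, lay inside Pla2g15, 94.2 kb from the Nfatc3 start, and is nearer to the start of that gene. At the Nfatc3 start itself a site 66 bp upstream had 11 tags in MP and 13 in OC and was not called at 36 h. The other intronic site, 425 bp downstream of the start, had 12 tags in MP and 19 at 36 h and was not called in OC.

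Nfatc4 (ENSMUSG00000023411.5, chr14:56443632-56452780, plus strand) had no peak inside the gene in any list and no MITF peak in its window. The nearest site upstream, at 2.2 kb, had 11 PU.1 tags in MP and 12 in OC. The nearest downstream, 13.3 kb from the start, had 11 and 13, and neither was called at 36 h. The highest value in the window, 25 tags at 36 h, lay 28.9 kb upstream, nearer to Ripk3, and was 12 tags in MP and 13 in OC.

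Nfat5 (ENSMUSG00000003847.9, chr8:109817370-109903417, plus strand) had its highest site by mean score 15.8 kb upstream of the start, with 92 PU.1 tags in MP, 93 at 36 h and 55 in OC and a MITF peak of 9 tags in MP only. In OC the site in intron 2, 24 kb from the start, was higher, with 54, 55 and 64 tags. The site at the start, centred 109 bp downstream of it in an untranslated or noncoding exon, had 12, 16 and 18 tags. A site 2.2 kb upstream, at chr8:109815059-109815249, was not called in MP and had 45 tags at 36 h and 34 in OC. The nearest MP peak, centred 324 bp away, had 14 tags and was itself called in MP only, so this stretch had a PU.1 peak at every stage. The site 2.2 kb upstream was singled out after its values were seen: of 6403 OC peaks that had a 36 h peak and no MP peak, 86 (1.34%) had 34 or more tags.

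Among the calcineurin subunits, Ppp3ca (ENSMUSG00000028161.9, chr3:136333088-136600691, plus strand) had 32 of its 35 sites in introns. The highest, 55.5 kb from the start in intron 1, had 109 PU.1 tags in MP, 91 at 36 h and 140 in OC and 16, 12 and 11 MITF tags. A second MITF peak, of 8 tags in OC only, lay at 72.8 kb on a PU.1 site of 22, 27 and 24 tags. Near its start Ppp3ca had an OC peak of 12 tags, 860 bp upstream, and a site in intron 1, 1.2 kb downstream, of 18, 19 and 16 tags. The PU.1 values of the other calcineurin subunits were lower. Ppp3cb (ENSMUSG00000021816.4, chr14:21318586-21365795, minus strand) had 35, 33 and 46 tags at its highest site by mean score, at a coding exon 38 kb from its start and nearer to the start of Zmynd17. It had 36 tags at 36 h at a site inside Anxa7, 67.6 kb from its start, and 8 tags in MP and 9 in OC at 851 bp from the start. Ppp3r1 (ENSMUSG00000033953.10, chr11:17059266-17100378, plus strand) reached 26 tags at 36 h, at a site inside Wdr92 and at an intronic site, and its site 196 bp upstream of the start had 6, 10 and 16. Neither gene had a MITF peak in any list.

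Rcan1 (ENSMUSG00000022951.9, chr16:92392198-92466391, minus strand) was the only one of the 9 genes with a high PU.1 site at a promoter. It lay 290 bp upstream of the first start and had 71 PU.1 tags in MP, 78 at 36 h and 72 in OC and no MITF peak, while the 11 other sites within 1 kb of a start had at most 23 tags. The site at 50.3 kb, in intron 1 and 15.8 kb upstream of the start of a shorter coding transcript, had 65, 67 and 83 PU.1 tags and 9, 10 and 9 MITF tags. The promoter site of Rcan1 and its intronic site had PU.1 values of about the same size, and MITF was called at the intronic site alone. The lowest MITF peak of each list had 9 tags in MP, 10 at 36 h and 8 in OC. The intronic site was therefore at or near that limit in every list. MITF tags at the promoter site below the limit would not be listed, so a difference in MITF between these sites is not shown.

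To set the genes side by side, the summed PU.1 score was divided by the window length. Nfatc2 came first of the 9 in every list, with 581.5 per 100 kb in MP, 559.7 at 36 h and 625.3 in OC, and Nfatc1 came second, with 432.9, 455 and 468.5. The intervals from tag counts alone did not overlap between them in any list (586.2 to 666 against 433.4 to 505.6 in OC). Nfatc3 followed with 367.6, 314.2 and 360.1. Its window had 18 sites, of which 12 lay downstream of the gene and 6 were nearest to its own start. In OC the interval of Nfatc3, 326.5 to 396.2, lay below that of Nfatc1 and above that of Rcan1, 246.6 to 307.2. Rcan1 with 275.7, Ppp3ca with 237.3 and Nfat5 with 234.5 overlapped in OC, as did Ppp3cb with 206.4 and Nfatc4 with 166.8, and Nfatc4 and Ppp3r1 with 140.5. The median over all protein-coding genes was 153.7 in MP, 142.6 at 36 h and 158.5 in OC. Of those genes, 86.4% had a lower OC value than Nfatc1 and 93.6% a lower one than Nfatc2, while 51.7% were below Nfatc4 and 46.7% below Ppp3r1. By number of peaks Nfatc1 came first in MP and at 36 h, with 8.7 and 9.67 peaks per 100 kb against 6.41 at both stages for Nfatc4. In OC Nfatc4 came first with 10.08 against 9.18, and none of its peaks had over 25 tags. Nfatc1 was 1.99 times the median of the other 8 genes in summed OC score per 100 kb.

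**Figure D3:**
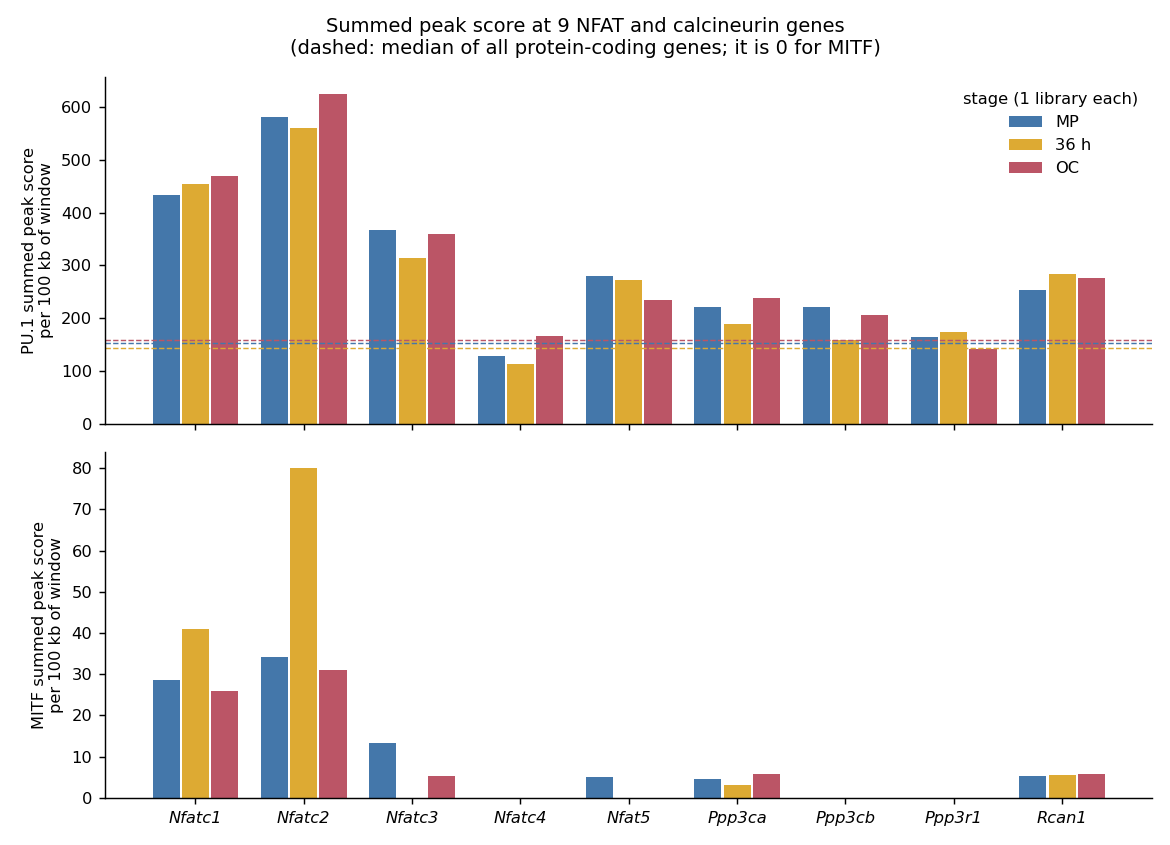
Summed peak score per 100 kb of window (y axis) for PU.1 (upper panel) and MITF (lower panel) at the 9 genes, with 1 bar for the library of each stage and dashed lines at the PU.1 median of all protein-coding genes. Nfatc2 and Nfatc1 are highest for both factors, and Nfatc4 and Ppp3r1 lie near the median.

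The next comparison asked whether PU.1 sat at the same places before and after RANKL. Of the 135 PU.1 OC peaks at the 9 genes, 102 (75.6%, 95% Wilson interval 67.7 to 82) overlapped a PU.1 MP peak, against 78% of the whole OC list. Of the 126 MP peaks, 102 (81%) overlapped an OC peak, against 78.8%. Of the 126 peaks at 36 h, 95 (75.4%) overlapped an MP peak, against 78.3%, and 103 of the OC peaks (76.3%) overlapped a 36 h peak, against 75.3%. The shares at the 9 genes lay near those of the whole lists. At Nfatc1 the MP list shared 14 of the 19 OC peaks. Of all 174 sites, 87 were called in 3 PU.1 lists, 39 in 2 and 48 in 1. Of the last, 16 were called in MP, beside 126 MP peaks, 15 at 36 h, beside 126 peaks at 36 h, and 17 in OC, beside 135 OC peaks. In the whole lists, 14.9% of MP peaks and 13.7% of OC peaks overlapped no peak of the other 2 PU.1 lists. The whole-list share for 36 h is not given here, nor is the split of all sites by number of lists, so those counts stand without a background. Sites called in 3 lists had a median of 26 tags at their highest stage, against 8 for those called in 1. This order was partly set in advance, since the lists hold no PU.1 peak below 6 or 7 tags.

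At sites called at both stages, the tags of both libraries were set against the median tag ratio of all matched peaks with an exact binomial test, two-sided, and p-values were adjusted by Benjamini-Hochberg over every matched peak. A pair was called at an adjusted p under 0.05 and a difference of at least 2-fold. None of the 102 member pairs was called from MP to OC, where 0.156% of 60099 pairs were called. None of 95 was called from MP to 36 h, where 1.05% of 56335 were, and none of 103 from 36 h to OC, where 0.0707% of 58008 were. At an unadjusted p under 0.05 there were 9 member pairs from MP to OC, 6 from MP to 36 h and 7 from 36 h to OC, where 7.84%, 10.9% and 6.45% of all pairs were below that value. From MP to OC the member pairs had a median log2 difference of 0.04 (interquartile range -0.26 to 0.35), against 0 (-0.32 to 0.32) for all pairs. The lowest adjusted p, 0.0583 by the exact binomial test, was at the Nfat5 site 15.8 kb upstream, with 92 tags in MP and 55 in OC, 0.523 times the expected value (95% exact interval 0.368 to 0.738). The largest value in the other direction was at an Nfatc2 site in intron 2, 31.5 kb from the start, with 8 tags in MP, 24 at 36 h and 30 in OC (3.28 times from MP to OC, 1.47 to 8.28, exact binomial adjusted p = 0.184). The highest Nfatc1 site was at 0.86 times (0.691 to 1.07) from MP to OC. The highest Nfatc2 site was at 0.962 times (0.773 to 1.2). For both sites the interval leaves out a 2-fold difference in either direction between these libraries.

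Summed over the sites called in all 3 PU.1 lists, Nfatc1 (13 sites) had 464 tags in MP, 554 at 36 h and 534 in OC, which was 1.01 times the expected value from MP to OC (95% exact interval 0.888 to 1.14). Nfatc2 (15 sites) had 727, 824 and 914 tags, 1.1 times (0.997 to 1.21). Ppp3ca (18 sites) was at 1.06 times (0.925 to 1.21) and Rcan1 (7 sites) at 1.1 times (0.917 to 1.31). Nfatc3 (9 sites) was at 0.905 times from MP to OC (0.779 to 1.05) and at 0.833 times from MP to 36 h (0.712 to 0.974). Most of these Nfatc3 window sites lay downstream of the gene, nearer to the starts of other genes. From MP to 36 h the site in intron 1 was at 1.31 times (0.928 to 1.87). The site inside Pla2g15, 94.2 kb from the Nfatc3 start, was at 0.678 times (0.486 to 0.94). Nfat5 (7 sites) was lowest from MP to OC, at 0.831 times (0.691 to 1). Ppp3cb, Ppp3r1 and Nfatc4 were at 0.936, 0.964 and 1.04 times, and their intervals held 1. For Nfatc1 the sums leave out the 53-tag OC peak described above.

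**Figure D4:**
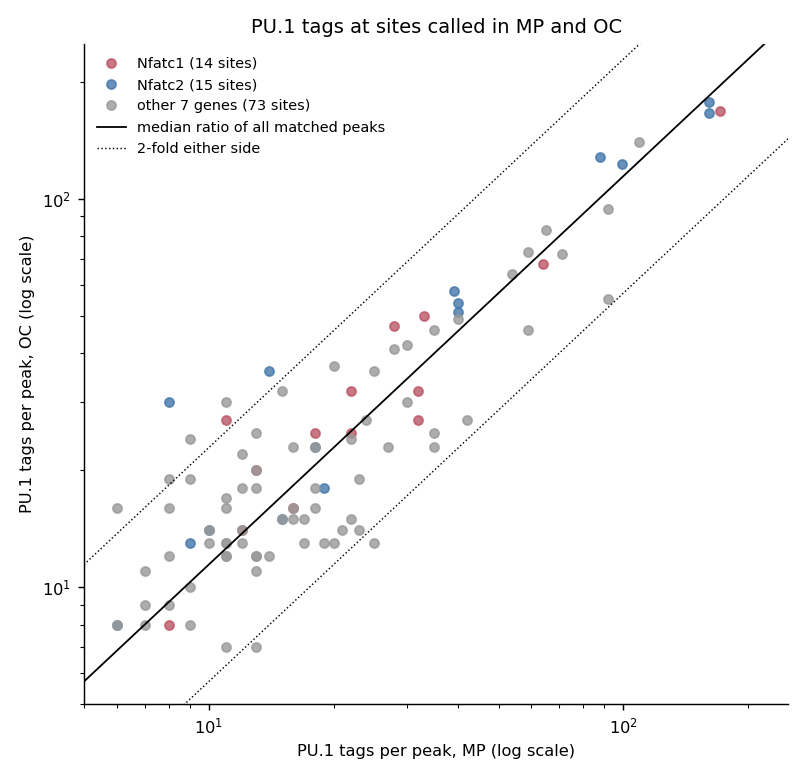
PU.1 tags per peak in MP (x axis, log scale) and OC (y axis, log scale) at the 102 sites of the 9 genes called at both stages, with the median ratio of all matched peaks as a solid line and 2-fold either side as dotted lines. The highest Nfatc1 and Nfatc2 sites, over 100 tags, lie close to the solid line, and no point outside the dotted lines has over 36 tags at either stage.

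MITF was called at 6 of the 9 genes in MP, with 11 peaks, at 4 at 36 h, with 7 peaks, and at 5 in OC, with 10 peaks. Of all protein-coding genes, 32.1%, 24% and 28.8% had a MITF peak in the window at these stages. Nfatc1, Nfatc2, Ppp3ca and Rcan1 had one in all 3 lists, as had 17.8% of all genes. Longer windows hold more peaks, so these shares are not adjusted for gene length. Every MITF peak at the 9 genes lay on a PU.1 peak of the same stage: 11 of 11 in MP, 7 of 7 at 36 h and 10 of 10 in OC, where the whole MITF lists had 97.9%, 93.8% and 93.3%. In the other direction, 11 of 126 PU.1 peaks overlapped a MITF peak in MP (8.73%, against 6.95% of the whole list), 7 of 126 at 36 h (5.56%, against 4.62%) and 10 of 135 in OC (7.41%, 95% Wilson interval 4.07 to 13.1, against 5.38%).

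The 28 MITF peaks fell on 12 sites, 10 of them in introns of the member gene, and on those sites PU.1 was high. All 12 were called in the 3 PU.1 lists, and their PU.1 OC values ran from 24 to 177 tags with a median of 108.5, against a median of 15 for the 123 PU.1 OC sites with no MITF peak. Of the 12 sites with 60 or more PU.1 tags in OC, 10 carried MITF in at least 1 list, and of the 123 with fewer, 2 did. The exceptions were the Rcan1 promoter, with 72 tags, and a site in intron 2 of Nfat5, 24 kb from its start, with 64. The value of 60 tags was set after the values were seen. In the whole OC list the pattern was alike: 62.6% of 8543 PU.1 peaks with 60 or more tags overlapped a MITF peak in at least 1 list, and 2.6% of 68529 with fewer. All 12 sites held GAGGAA or AGGAAG in the 151 bases around the centre, and 3 of the 12 held CACGTG or CATGTG. Those windows were centred on the PU.1 OC peak. In the MITF OC list as a whole, with windows centred on the MITF peaks, the corresponding shares were 83.7% and 11.8%.

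**Figure D5:**
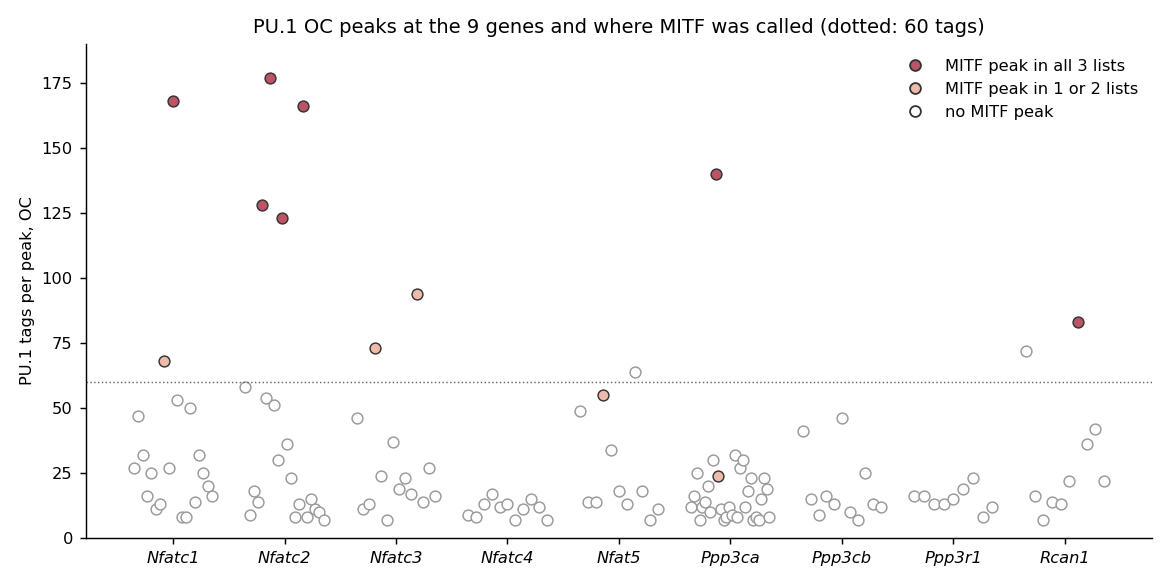
PU.1 tags per OC peak (y axis) at the 9 genes, with the peaks of each gene set side by side and filled by the number of MITF lists that had a peak there. Of 12 sites at or above 60 tags (dotted line) 10 carry MITF, and Nfatc4, Ppp3cb and Ppp3r1 have no such site and no MITF peak.

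MITF tags at 9 sites called in MP and OC were compared in the same way, a test that was added after the lists were read. None of the 9 was called, and none of the 2844 matched MITF peaks was (0%). At an unadjusted p under 0.05 there were 0 of the 9 and 92 of the 2844. The highest Nfatc1 site had 46 and 38 tags and the highest Nfatc2 site 26 and 29. For MITF from MP to 36 h the tag ratio is given as a description, since some 36 h peaks were wider. The median ratio of 2509 matched peaks was 1.74, and their 10th and 90th percentiles were 0.765 and 3.64. Among the 7 member sites called at both stages, the Nfatc2 site at 22.4 kb had a ratio of 5.35, above 97.1% of matched peaks, and the highest Nfatc1 site had 1.89, above 55.1%. The other 5 lay below the median, from 0.667 at the Nfatc2 site at 62.4 kb to 1.17 at that at 18.4 kb, above 5.9% to 30.3% of matched peaks. The 36 h peak was 223 bp wide at the first of these sites and 214 bp at the highest Nfatc1 site, 170 bp at the Nfatc2 site at 18.4 kb and 150 bp at the remaining 4, as in MP. The part of peak width in these ratios was not tested.

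The regions that the study's oligonucleotides reach at Nfatc1 were placed on the same map. A listed primer pair with a product of 96 bp matched chr18:80899328-80899423, inside the second site, 10.4 kb from the start. For chromosome conformation capture with BglII, the constant primer lay in a fragment of 8951 bp that holds both annotated starts and the PU.1 site 2.2 kb upstream. The primer named +T1 lay in the next fragment, chr18:80897716-80903732, which holds 4 PU.1 sites, among them that at 10.4 kb. The +T2 fragment held the site at 15.9 kb, and the +T3 and +T5 fragments held none. The highest site and the 53-tag OC site share 1 fragment of 2853 bp, chr18:80886497-80889349, between the +T3 and +T5 fragments, and no listed primer matched it exactly. The primers named +T4 and -T4 had no exact match in the region searched, so whether +T4 was meant for that fragment is not known here.

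Other genes of calcium and calcineurin signalling were given as a list of 26, among them the kinases that return NFAT to the cytoplasm, the calmodulins, the phospholipase C gamma enzymes and the calcium channels of the endoplasmic reticulum and plasma membrane. All 26 had PU.1 peaks in the 3 lists, as had 81.2% of all protein-coding genes, with 2 to 42 peaks in OC. Their median summed PU.1 OC score was 313.9 per 100 kb, against 158.5 for all protein-coding genes. MITF peaks were found in all 3 lists at 13 of them, where 17.8% of all genes had them. By stage, 16 had one in MP, 14 at 36 h and 14 in OC, against 32.1%, 24% and 28.8% of all genes. These shares and the summed MITF scores below are not adjusted for window length. The 5 with the highest summed MITF score were Akap5, a scaffold that anchors calcineurin (339.9 over the 3 lists), Plcg2, which makes the messenger that releases calcium (201.4), the inositol trisphosphate receptors Itpr2 (166.6) and Itpr3 (155), and Ppp3cc, the third catalytic calcineurin subunit (123.8). Per 100 kb, the PU.1 OC score was 564.5 at Itpr3, 527 at Plcg2, 479.9 at Akap5, 452 at Ppp3cc and 305.6 at Itpr2, beside 468.5 at Nfatc1. The values of the catalytic subunits among the 9 genes were 237.3 at Ppp3ca and 206.4 at Ppp3cb.

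By the Euclidean distance of log2(summed score + 1) over the 6 lists, which does not correct for window length, the 5 genes with the profile most like Nfatc1 were Dnhd1 (0.24), Zfp719 (0.38), Mgl2 (0.38), Med11 (0.42) and Gcn1l1 (0.43), of 22365 genes whose windows do not overlap it. Dnhd1, a dynein heavy chain domain gene, had summed PU.1 scores of 883.8, 941.4 and 957.4 and MITF scores of 64.3, 73 and 53.7, against 895.6, 941.3 and 969.1 and 59.2, 84.7 and 53.7 at Nfatc1. Of the NFAT family Nfatc2 was closest, in place 641 with a distance of 1.49. Among the other members Ppp3ca followed in place 2808 and Rcan1 in place 3771, and Nfatc4 was farthest, with a distance of 11.44.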

How the data were processed

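PU.1, MITF and IgG ChIP-Seq of mouse bone marrow cells was used, with 1 library per condition. Per the labels and the submitters' processing notes, the authors mapped reads to mm9 with Bowtie2 and called peaks with HOMER (no version is given in the sources used here), after base calling with CASAVA 1.8. The deposited peak scores are signal values: tag counts that the authors scaled to library size, each list called on 1 library. Fold changes or p-values of the authors were not used.

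Every score was a whole multiple of the score of 1 tag (0.9734 to 3.2047 by list) within 0.0501 score units, which gave the tags. Counts of tags limit precision, and Wilson, Poisson and Clopper-Pearson 95% intervals cover counting error only.

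Peaks were assigned by centre to GENCODE vM1 genes with a flank of 50 kb, and overlap meant at least 1 bp. Introns were numbered on the longest coding transcript. RefSeq names of 1 alternative came from a table of another build, with no coordinates taken, and matched for 92.4% of peaks. Matched PU.1 tags were compared by an exact two-sided binomial test against the median ratio, adjusted by Benjamini-Hochberg over all pairs, and tested on simulated data. The 9 genes were all named, with the highest site, the site nearest the start and every MITF site, and the listed pathway genes by summed MITF score. The members and lists were chosen with earlier results of these data known. Alternatives were score threshold, flank, assignment, IgG overlap, list length, overlap rule and expected ratio. The AGGAAG motif and the MITF test were added after the data were seen. Sequences at Nfatc1 and Ppp3cb are not printed here. Python 3.11.15, numpy 2.4.6, scipy 1.17.1 and samtools 1.23.1 were used.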

Additional observations from a re-analysis of the deposited data

How the results depend on the processing

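No paired analysis was possible because each condition had 1 library and the labels carry no replicate numbers, so no library could be left out either. Of 70 values under 10 alternatives, 59 stayed within 1.5 times of the reported count or within the interval of the reported share or ratio. Some of the 59 had little room to move. None of the 9 windows held an IgG peak, so removal of IgG overlap took nothing out. Member calls of 0 and the Nfatc1 place of 3 with the 100 kb flank were counted among those that stayed. In 1 alternative only peaks that reached 2 times the lowest score in the same list were kept. At the 9 genes this left 241 of 387 PU.1 peaks and 10 of 28 MITF peaks, and 2 genes kept a MITF peak. The share of PU.1 OC peaks that overlapped a MITF peak was 3.66%, against 7.41%. All MITF peaks at Nfatc3, Nfat5, Ppp3ca and Rcan1 were below this threshold. With the gene bodies alone 232 PU.1 peaks were left, against 271 with a 10 kb flank and 531 with a 100 kb flank. Nfatc1 had 2.24 times the median of the other 8 genes in PU.1 OC score per 100 kb at the stricter threshold, 2.45 times in gene bodies, 2.56 times with a 10 kb flank, 1.64 times with a 100 kb flank and 2.35 times when only peaks whose nearest RefSeq transcript was the gene's were kept. It held place 2 in these settings except with the 100 kb flank, where it was in place 3. With the ratio of library sizes as the expected value (1.154 from MP to 36 h in place of 1.059), the calls from MP to 36 h over all pairs numbered 1005 (150 higher at 36 h and 855 higher in MP) against 593 (192 and 401), and those from 36 h to OC numbered 40 (27 higher in OC and 13 higher at 36 h) against 41 (13 and 28). No member pair was called under any of the 4 alternatives that concern the test.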
